A study of Mus musculus with 54 samples.

Results

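Genes of the inflammasome, of pyroptosis and of necroptosis were examined in the RNA sequencing data of mouse macrophages. They are 8 genes, chosen by symbol, of 39179 gene identifiers in the count data: Casp1, Casp4, Casp8, Gsdmd, Mlkl, Ripk3, Nlrp3 and Aim2. All 8 passed the expression filter in both experiments. The macrophages came from the peritoneum of C57BL/6 mice of 8 to 20 weeks, lavaged 4 days after an injection of thioglycolate, and only cells that adhered to the plate were used. In the polarization experiment, cells of 3 mice were kept for 24 h without stimulus (M0), with IFN-γ at 50 ng/ml plus LPS at 100 ng/ml (M1-like, here M1) or with 10 ng/ml IL-4 (M2-like, here M2), and each of the 3 conditions was sequenced in 2 technical replicates per mouse, which makes 18 libraries. The reprogramming experiment held 12 conditions with 3 replicates each, so 36 libraries. These were untransfected cells of the 3 kinds (M0, M1, M2), the same with transfection reagent only (M0_mock, M1_mock, M2_mock), and M2-like macrophages transfected with a negative siRNA pool (M2_neg_siPool), with siRNA pools against E2f1, Myc, Pparg or Stat6, or with the 4 pools combined (M2_siPool_combined). The M2-like cells were transfected after 24 h in IL-4, were kept without IL-4 from then on and were harvested 48 h after transfection. The harvest time of the untransfected libraries of this experiment is not given in the sources used here. The methods name 3 biological replicates for the RNA used in quantitative PCR, but neither they nor the labels say whether replicates 1 to 3 of the reprogramming libraries came from different animals, so that p-values there measure the spread between these samples, which may be technical.

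Inflammasomes are protein platforms in the cytosol that assemble on danger signals and activate caspase-1, which matures IL-1β and IL-18 and cleaves gasdermin D. The freed end of gasdermin D forms pores in the plasma membrane, and the lytic death that follows is called pyroptosis. Necroptosis is another lytic form of death, in which RIPK3 phosphorylates MLKL, and MLKL then breaches the membrane. Caspase-8 holds necroptosis in check and can start apoptosis instead. In macrophages the genes of the sensors and executioners are known to be raised ahead of a second signal that triggers the proteins, so a transcript level describes this priming step and not the activity of the pathway or the death of cells.

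The members fall into sensors, inflammatory caspases, the pore former and the necroptosis kinase with its substrate. Nlrp3 (chromosome 11, 59541568 to 59566956, plus strand) codes for the sensor of potassium efflux and membrane damage, and Aim2 (chromosome 1, 173350879 to 173466040, plus strand) for the sensor of double-stranded DNA in the cytosol. Casp1 (chromosome 9, 5298517 to 5307265, plus strand) codes for caspase-1, and Casp4 (chromosome 9, 5308828 to 5336783, plus strand), its neighbor, for mouse caspase-11, which binds LPS in the cytosol. Gsdmd (chromosome 15, 75862327 to 75867408, plus strand) codes for gasdermin D. Casp8 (chromosome 1, 58795374 to 58847503, plus strand) codes for caspase-8, Ripk3 (chromosome 14, 55784995 to 55788865, minus strand) for the necroptosis kinase, and Mlkl (chromosome 8, 111311797 to 111338177, minus strand) for the executioner of necroptosis. Coordinates are those of GRCm38 in GENCODE M21. No exon base of a member is shared with another annotated gene, although the span of Aim2 overlaps that of Cadm3, which lies on the minus strand.

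RefSeq promoter sequence (build GRCm38.p6) was given for 7 of the 8 members, and stretches before the start sites of Casp4, Mlkl and Nlrp3 are printed here because these genes had the greatest increases in M1 macrophages. Each is written 5′ to 3′ on the strand of the gene, ends before the first annotated exon base, and carries in capitals the matches to 7 motifs that were searched on both strands. Casp4 is shown from chr9:5308599-5308827 (229 bases), Mlkl from chr8:111338206-111338455 on the minus strand (250 bases), the upstream Nlrp3 start from chr11:59541319-59541567 (249 bases) and the downstream Nlrp3 start from chr11:59542436-59542685 (250 bases).
Casp4: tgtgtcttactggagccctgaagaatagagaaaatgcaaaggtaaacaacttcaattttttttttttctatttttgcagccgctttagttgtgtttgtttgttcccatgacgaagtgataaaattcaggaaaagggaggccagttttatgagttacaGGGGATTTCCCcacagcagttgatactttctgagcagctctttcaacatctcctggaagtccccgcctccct
Mlkl: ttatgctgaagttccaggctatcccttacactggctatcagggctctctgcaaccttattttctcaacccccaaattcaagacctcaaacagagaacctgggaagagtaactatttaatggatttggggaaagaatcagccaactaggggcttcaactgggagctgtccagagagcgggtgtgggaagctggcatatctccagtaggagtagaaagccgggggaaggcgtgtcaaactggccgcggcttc
Nlrp3 upstream: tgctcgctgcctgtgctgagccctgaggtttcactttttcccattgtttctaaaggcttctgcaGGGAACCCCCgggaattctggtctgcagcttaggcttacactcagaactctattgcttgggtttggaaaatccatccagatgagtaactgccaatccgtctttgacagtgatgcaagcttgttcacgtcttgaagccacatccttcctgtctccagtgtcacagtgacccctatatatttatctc
Nlrp3 downstream: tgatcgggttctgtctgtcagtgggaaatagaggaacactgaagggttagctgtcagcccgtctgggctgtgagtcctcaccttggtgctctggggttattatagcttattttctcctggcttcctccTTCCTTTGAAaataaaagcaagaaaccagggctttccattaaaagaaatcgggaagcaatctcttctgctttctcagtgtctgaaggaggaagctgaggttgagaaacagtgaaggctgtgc
The capitals mark a match to the NF-κB consensus in Casp4 and in the upstream Nlrp3 window, and in the downstream Nlrp3 window a match to TTC and GAA set 4 bases apart, the spacing that STAT6 prefers. Matches to the NF-κB consensus were found in the 250 bases before 3.9% of all 32851 start sites in the table, and matches to the STAT6 motif before 5.85%. The Mlkl stretch held none of the 7 motifs, which also included the ISRE bound by interferon regulatory factors (2.98% of start sites), CACGTG (the E-box bound by Myc, 6.02%), TTTNGCGC (an E2F site, 1.13%) and the PPAR site (0.0335%). The E-box was present before Casp1, from position −137 to −132, and before Ripk3, from −61 to −56, counted from the start site. These matches describe letters in a short window and not binding.

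Libraries held 19714994 to 29880494 counted reads in the polarization experiment and 13421854 to 19704195 in the reprogramming experiment. The lowest count of a member was 110, for Nlrp3 in M2 macrophages of the polarization experiment after the technical replicates were summed. Macrophage markers were at 6448 to 18409 CPM in sum in every library, and the summed markers of neutrophils, B cells, T and NK cells, eosinophils and mast cells, and dendritic cells each stayed at or below 35.7 CPM. The 6 markers of mesothelial cells and fibroblasts reached 208 CPM in sum in the reprogramming experiment, against at most 12.8 CPM in the polarization experiment. The siRNA pools lowered their targets to between 19.2% and 44.2% of the mean of the negative pool when given alone and to between 25.7% and 62.8% when combined. In the combined pool E2f1 stayed at 59.3% to 62.8% and Stat6 at 48.4% to 57.3%, against 21.7% to 29.6% and 22.6% to 33.8% alone. Myc was at 36.2% to 42.6% combined and 29.0% to 44.2% alone, and Pparg at 25.7% to 29.9% combined and 19.2% to 24.3% alone. CPM is the count scaled to a fixed library size, after TMM normalization. Fold changes come from edgeR's quasi-likelihood test, in which an adjusted p-value (Benjamini-Hochberg over all genes) under 0.05 was the threshold for a call.

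In the polarization experiment, 6 of the 8 members were higher in M1 than in M2 macrophages, Aim2 was lower and Ripk3 did not pass the test. This fit did not pair the conditions by mouse. With the mouse as a block, Ripk3 was also called higher in M1 macrophages (log2 fold change 0.25, adjusted p = 0.0214). The sensor Nlrp3 had the greatest difference, followed by Mlkl and Casp4. Of all 16110 genes tested, 72.6% passed this test, so a call in either direction for 7 of 8 members is near the background. By direction, 34.6% of all genes were higher and 38.1% lower, beside 6 of the 8 members higher. The median log2 fold change was 1.71 over the members and −0.06 over all genes. The samples are bulk RNA, in which fewer cells of a type and less RNA per cell cannot be told apart.

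Nlrp3 was at 270.5, 240.0 and 230.0 CPM in the M1 macrophages of the 3 mice. In M2 macrophages it was at 2.55, 2.95 and 2.79 CPM, and in M0 macrophages at 10.6, 9.996 and 8.46 CPM. The 3 conditions did not overlap, and M2 macrophages lay below M0. The log2 fold change between M1 and M2 macrophages was 6.47 ± 0.11 (SE, n = 3 mice; adjusted p = 3.87e-13), which is 88.9-fold. Nlrp3 was also 3.48-fold lower in M2 than in M0 macrophages (adjusted p = 5.74e-07), the greatest effect of IL-4 on any member.

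The necroptosis executioner Mlkl was at 333, 327 and 344 CPM in M1 macrophages, against 19.0, 17.1 and 17.99 CPM in M2 and 12.9, 15.1 and 15.6 CPM in M0 macrophages. The difference between M1 and M2 macrophages was 18.6-fold (log2 fold change 4.22 ± 0.08, adjusted p = 8.26e-13). Its kinase behaved differently. Ripk3 was at 32.6, 31.2 and 37.6 CPM in M1, at 23.5, 28.8 and 33.5 CPM in M2 and at 15.3, 14.4 and 17.0 CPM in M0 macrophages. The M1 and M2 values overlapped (log2 fold change 0.24 ± 0.12, adjusted p = 0.089), while both lay above M0. Compared with M0, Ripk3 rose by a log2 fold change of 1.12 ± 0.12 in M1 (adjusted p = 4.57e-06) and of 0.88 ± 0.12 in M2 macrophages (adjusted p = 0.000319). With the mouse as a block in the model, the M1 against M2 difference of Ripk3 passed the test (0.25, adjusted p = 0.0214), as it did without the M2 sample of mouse 3 (0.37, adjusted p = 0.0114).

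Casp4 was at 289, 301 and 306 CPM in M1, 21.3, 17.7 and 15.7 CPM in M2 and 12.1, 13.6 and 14.6 CPM in M0 macrophages. It was thus 16.4-fold higher in M1 than in M2 cells (log2 fold change 4.04 ± 0.11, adjusted p = 1.04e-11). Its neighbor Casp1 started from a higher level and rose less, to 357, 399 and 453 CPM in M1 from 136, 102 and 100.4 CPM in M2 and 92.1, 93.7 and 96.2 CPM in M0 macrophages, or 3.57-fold between M1 and M2 cells (log2 fold change 1.84 ± 0.12). Gsdmd was at 185, 195 and 230.5 CPM in M1 and at 62.7, 68.9 and 71.3 CPM in M2 macrophages, 3.01-fold apart. Casp8 was at 114, 111 and 125 CPM in M1 and at 66.9, 57.1 and 55.4 CPM in M2 macrophages, 1.95-fold apart. None of the 4 genes overlapped between M1 cells and the other conditions, and the share of all genes without overlap was not counted.

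Aim2 went the other way. It was at 27.8, 32.4 and 39.3 CPM in M1, 50.1, 40.6 and 42.7 CPM in M2 and 43.2, 44.0 and 46.7 CPM in M0 macrophages, so that the M1 values lay below all others. The log2 fold change was −0.42 ± 0.11 both against M2 (adjusted p = 0.00575) and against M0 macrophages (adjusted p = 0.00535).

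Against M0, all 8 members passed the test in M1 macrophages, 7 of them higher, where 72.9% of all genes passed (35.4% higher and 37.5% lower). M2 macrophages differed from M0 in 4 members, with 27.9% of all genes passing (13.5% higher and 14.4% lower). Besides Ripk3 and Nlrp3, these were Casp4 (log2 fold change 0.43 ± 0.10, adjusted p = 0.00838) and Mlkl (0.31 ± 0.08, adjusted p = 0.0111), both slightly higher in M2 macrophages. Per kilobase of exon, Casp1 had the highest mean level of the members in each condition, from 62.8 CPM per kb in M0 to 269 CPM per kb in M1 macrophages, and Nlrp3 had the lowest in M0 and M2 macrophages, with 2.39 and 0.681 CPM per kb. In M1 macrophages the lowest was Aim2, at 9.48 CPM per kb, and Nlrp3 was at 60.8 CPM per kb.

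**Figure D1:**
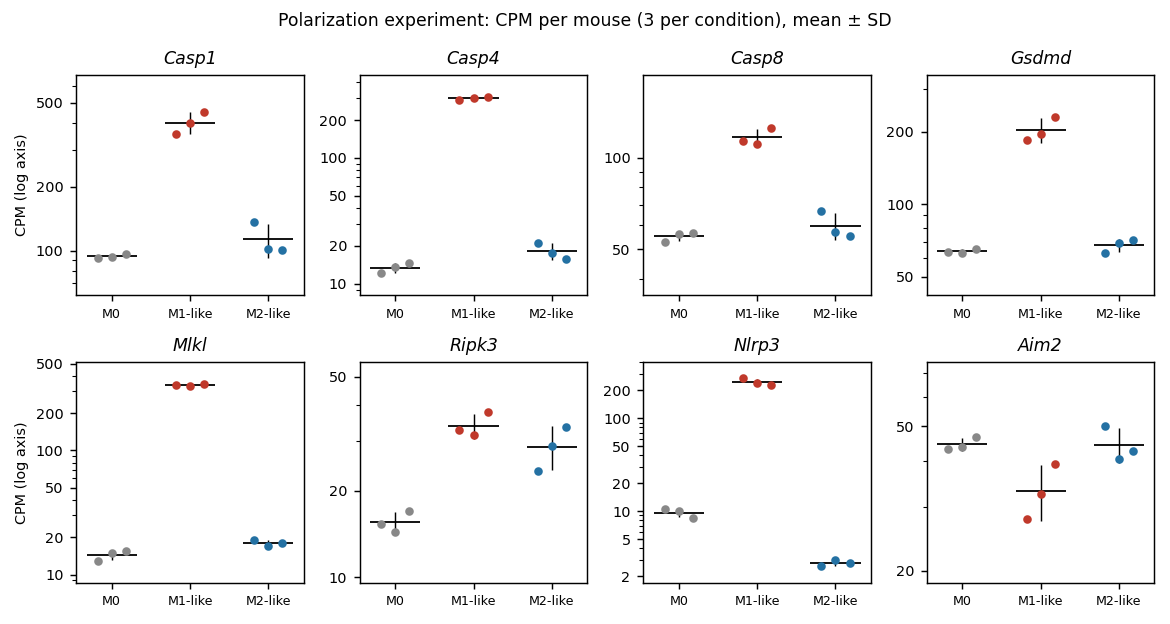
CPM of the 8 members on a log axis in M0, M1 and M2 macrophages of the polarization experiment, with 1 point per mouse and the mean ± SD of 3 mice in black. Nlrp3 lies at 230.0 CPM and above in all M1 samples and at most 2.95 CPM in all M2 samples, and Aim2 is the only member with its lowest values in M1 macrophages.

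The same contrast was asked again in the reprogramming experiment, in untransfected and in mock-transfected macrophages. All 8 members were higher in untransfected M1 than in untransfected M2 macrophages, with 61.5% of 14172 genes passing the test, 31.3% higher and 30.2% lower. Casp4 led, with 88.0, 125 and 102 CPM in M1 against 17.0, 15.4 and 14.7 CPM in M2 macrophages (log2 fold change 2.74 ± 0.19, adjusted p = 3.32e-14). Mlkl followed, at 59.5, 80.7 and 74.9 CPM against 16.0, 16.7 and 15.3 CPM (2.16 ± 0.14, adjusted p = 7.53e-15). The 2 experiments were sequenced separately, with reads of 50 nt from 1 end and of 150 nt from both ends, and were fitted separately, so levels are not compared between them by a test.

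Nlrp3 was at 19.6, 37.1 and 25.1 CPM in untransfected M1 and at 16.8, 15.1 and 16.6 CPM in untransfected M2 macrophages (log2 fold change 0.75 ± 0.14, adjusted p = 3.48e-05). The groups did not overlap, but the M1 replicates varied more, relative to their mean, than in the polarization experiment. Ripk3 was apart here, at 36.5, 44.0 and 38.6 CPM against 18.4, 18.9 and 17.1 CPM (1.13 ± 0.09, adjusted p = 1.57e-12). Aim2 was at 73.2, 61.0 and 56.9 CPM against 54.7, 51.6 and 50.5 CPM, higher in M1 cells (0.29 ± 0.08, adjusted p = 0.00407). This call rested on 1 library, since without M1 replicate 1 the value was 0.17 (adjusted p = 0.0801). The remaining members, Casp1 (0.81 ± 0.09), Gsdmd (0.38 ± 0.07) and Casp8 (0.25 ± 0.08), were higher in M1 cells by less than 1 on the log2 scale. With only the compared groups in the fit, Casp8 (0.23, adjusted p = 0.0647) and Aim2 (0.26, adjusted p = 0.0628) did not pass, which leaves 6 members.

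Against untransfected M0, 7 members were higher in untransfected M1 macrophages (57.7% of genes passed and 29% were higher), all but Casp8 (log2 fold change 0.16 ± 0.08, adjusted p = 0.0789). Untransfected M2 macrophages differed from M0 in Aim2, at 54.7, 51.6 and 50.5 CPM against 39.2, 40.9 and 38.2 CPM (0.41 ± 0.09, adjusted p = 0.000913), and in Gsdmd, at 80.7, 72.4 and 80.2 CPM against 57.7, 65.5 and 68.0 CPM (0.29 ± 0.08, adjusted p = 0.00671), where 19.9% of all genes passed and 10.7% were higher. The Gsdmd call was lost without M0 replicate 1 (0.22, adjusted p = 0.0695). Casp1, at 110, 112 and 104 CPM against 90.0, 96.5 and 88.3 CPM, did not overlap but missed the threshold (0.25 ± 0.09, adjusted p = 0.0532). It passed with DESeq2, RLE size factors, the other count filters, the replicate block and only the compared groups (adjusted p between 0.0206 and 0.0472). Its highest adjusted p over 12 alternatives was 0.16. Nlrp3, 3.48-fold lower in M2 than in M0 macrophages of the polarization experiment, was at −0.06 ± 0.15 between these groups (adjusted p = 0.816), with a 95% interval from −0.35 to 0.23.

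In mock-transfected cells 6 members were higher in M1 than in M2 macrophages, with 60.7% of all genes passing and 30.9% higher. These were Casp4 (2.44 ± 0.18), Mlkl (1.18 ± 0.13), Nlrp3 (0.85 ± 0.14), Ripk3 (0.63 ± 0.09), Casp1 (0.62 ± 0.09) and Gsdmd (0.34 ± 0.07 on the log2 scale). Casp8 (0.11 ± 0.08) and Aim2 (0.01 ± 0.08) did not pass. The contrast itself was compared between mock and untransfected cells with an interaction term. It was smaller in mock cells for Mlkl, by −0.99 ± 0.19 on the log2 scale (adjusted p = 0.0019), and for Ripk3, by −0.50 ± 0.13 (adjusted p = 0.0399), where 1.13% of all genes passed. The Mlkl value had an adjusted p of at most 0.0112 over its 18 alternatives. The Ripk3 call was lost in 9 of the 12 fits that left out 1 library, with adjusted p-values between 0.0533 and 0.192.

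**Figure D2:**
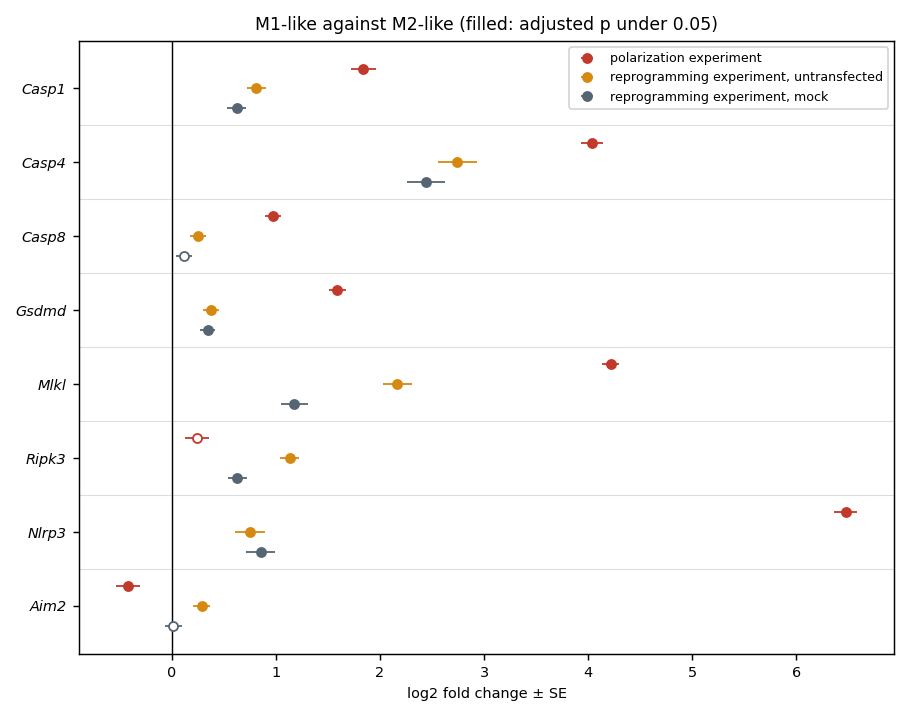
Log2 fold change ± SE of each member of M1 over M2 macrophages in the polarization experiment, in untransfected cells and in mock-transfected cells of the reprogramming experiment (n = 3 per group). Filled points passed an adjusted p of 0.05, and the value of Nlrp3 runs from 6.47 in the polarization experiment to 0.75 in untransfected cells.

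Markers of other cells moved with these groups in the reprogramming experiment. The 6 mesothelial and fibroblast markers (Msln, Upk3b, Krt19, Wt1, Col1a1, Dcn) summed to 15.2 to 36.6 CPM in untransfected M1 and 9.79 to 17.5 CPM in mock M1 macrophages, against 49.0 to 179.5 CPM in M2 and 71.2 to 125 CPM in M2_mock, and 4 of the 5 that were tested were lower in M1 than in M2. Krt19 was at 0 in all M1 libraries. Of 6 B cell markers 5 were lower in M1 than in M2, with sums of 0.733 to 1.47 CPM against 7.23 to 14.9 CPM. All 3 eosinophil and mast cell markers tested were lower (sums of 0.126 to 0.937 CPM against 3.31 to 9.80 CPM), as were both dendritic cell markers tested (0.379 to 1.47 CPM against 2.71 to 3.87 CPM). The neutrophil sum went the other way, at 12.2 to 13.2 CPM in M1 against 4.77 to 11.8 CPM in M2. It was also higher in mock M1 than in mock M2 cells, without overlap. Of the 2 neutrophil markers tested between M1 and M2, 1 was higher and 1 was lower. Macrophage markers summed to 6955 to 8096 CPM in M1 and 16034 to 18409 CPM in M2. Their part in the differences of the 8 members was not tested. In the polarization experiment the mesothelial and fibroblast sum was between 5.28 and 12.8 CPM in all samples. The neutrophil sum there was at 9.53 to 14.4 CPM in M1 and 5.85 to 7.05 CPM in M2.

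Several members differed between mock-transfected and untransfected M0 macrophages. The harvest time of the untransfected libraries is not given. In contrasts of mock with untransfected cells, reagent and time in culture therefore cannot be told apart. Of the 8, 6 were higher and Ripk3 was lower in mock than in untransfected M0 macrophages, where 20.4% of all genes passed (11.7% higher and 8.66% lower). Nlrp3 was at 34.8, 37.8 and 32.5 CPM in M0_mock against 17.5, 19.2 and 13.9 CPM in M0 (log2 fold change 1.05 ± 0.14, adjusted p = 1.03e-06), and Casp4 was at 25.3, 25.2 and 54.4 CPM against 14.2, 16.3 and 14.9 CPM (1.20 ± 0.19, adjusted p = 1.7e-05). Mlkl was at 26.6, 32.3 and 43.0 CPM against 19.9, 16.8 and 14.5 CPM, and Aim2 at 59.9, 55.3 and 61.9 CPM against 39.2, 40.9 and 38.2 CPM. M0_mock replicate 3 was the highest of its group for Casp1, Casp4, Casp8, Gsdmd, Mlkl and Aim2. Without it, Casp4 was at 0.74 (adjusted p = 0.000259), Mlkl at 0.79 (adjusted p = 7.81e-05), Nlrp3 at 1.11 (adjusted p = 2.84e-06), and Casp1 no longer passed (0.24, adjusted p = 0.0736). Ripk3 (−0.30 ± 0.09, adjusted p = 0.0202) no longer passed without M0 replicate 2 (−0.22, adjusted p = 0.157) or M0_mock replicate 1 (−0.25, adjusted p = 0.0973).

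In M2 macrophages Mlkl was the only member called between mock and untransfected cells, at 27.7, 33.8 and 35.3 CPM against 16.0, 16.7 and 15.3 CPM (log2 fold change 1.01 ± 0.14, adjusted p = 8.63e-06). Of all genes, 1.77% passed there and 1.67% were higher. Aim2 did not pass (0.24 ± 0.08, adjusted p = 0.244) but had an unadjusted p under 0.05. In M1 macrophages edgeR called none of the 8 members, DESeq2 also called 0, and 1 (Ripk3) had an unadjusted p under 0.05. Among all genes both tools called 0 there, against 438 at an unadjusted p under 0.05. Mock M2 macrophages were below mock M0 macrophages in Nlrp3, at 14.9, 18.9 and 17.6 CPM against 34.8, 37.8 and 32.5 CPM (−1.04 ± 0.14, adjusted p = 1.16e-05), and in Casp4 (−0.85 ± 0.19, adjusted p = 0.00657), where 3.83% of all genes passed (2.19% higher and 1.64% lower). The Casp4 call rested on M0_mock replicate 3, without which it was −0.38 (adjusted p = 0.122). Mock M1 macrophages were above mock M0 in 5 members (60.4% of genes passed and 30.3% were higher), but not in Nlrp3 (−0.18 ± 0.13, adjusted p = 0.236).

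The negative siRNA pool, which is meant to have no target, was set against the reagent alone, and 5 members were called. Against mock M2 macrophages, Casp4, Mlkl, Aim2, Ripk3 and Gsdmd were higher, where 11.7% of all genes passed (6.67% higher and 5.03% lower). Mlkl was at 50.2, 51.7 and 52.2 CPM against 27.7, 33.8 and 35.3 CPM (log2 fold change 0.67 ± 0.13, adjusted p = 0.00058). Casp4 was at 29.7, 34.4 and 33.8 CPM against 19.1, 20.3 and 18.8 CPM (0.75 ± 0.19, adjusted p = 0.00639). The groups did not overlap for any of the 5 genes, which were picked by their calls. The share of all genes without overlap was not counted. Aim2 was at 80.5, 80.8 and 84.2 CPM against 63.2, 67.4 and 54.2 CPM (0.41 ± 0.08), Ripk3 differed by 0.40 ± 0.09 and Gsdmd by 0.30 ± 0.07. The 6 mesothelial and fibroblast markers summed to 130 to 192 CPM with the negative pool and 71.2 to 125 CPM with mock, without overlap, and 0 of the 5 tested passed the test (edgeR, adjusted p under 0.05), 1 of them (Col1a1) with an unadjusted p under 0.05. Their part in the result was not tested. Nlrp3 was at 13.2, 13.5 and 13.4 CPM with the negative pool, the lowest of all 12 conditions, and below each mock library. The difference did not pass the test in the fit of all groups (−0.36 ± 0.15, adjusted p = 0.131). It passed with no filter on low counts (−0.36, adjusted p = 0.041) and with only the compared groups in the fit (−0.37, adjusted p = 0.0491).

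**Figure D3:**
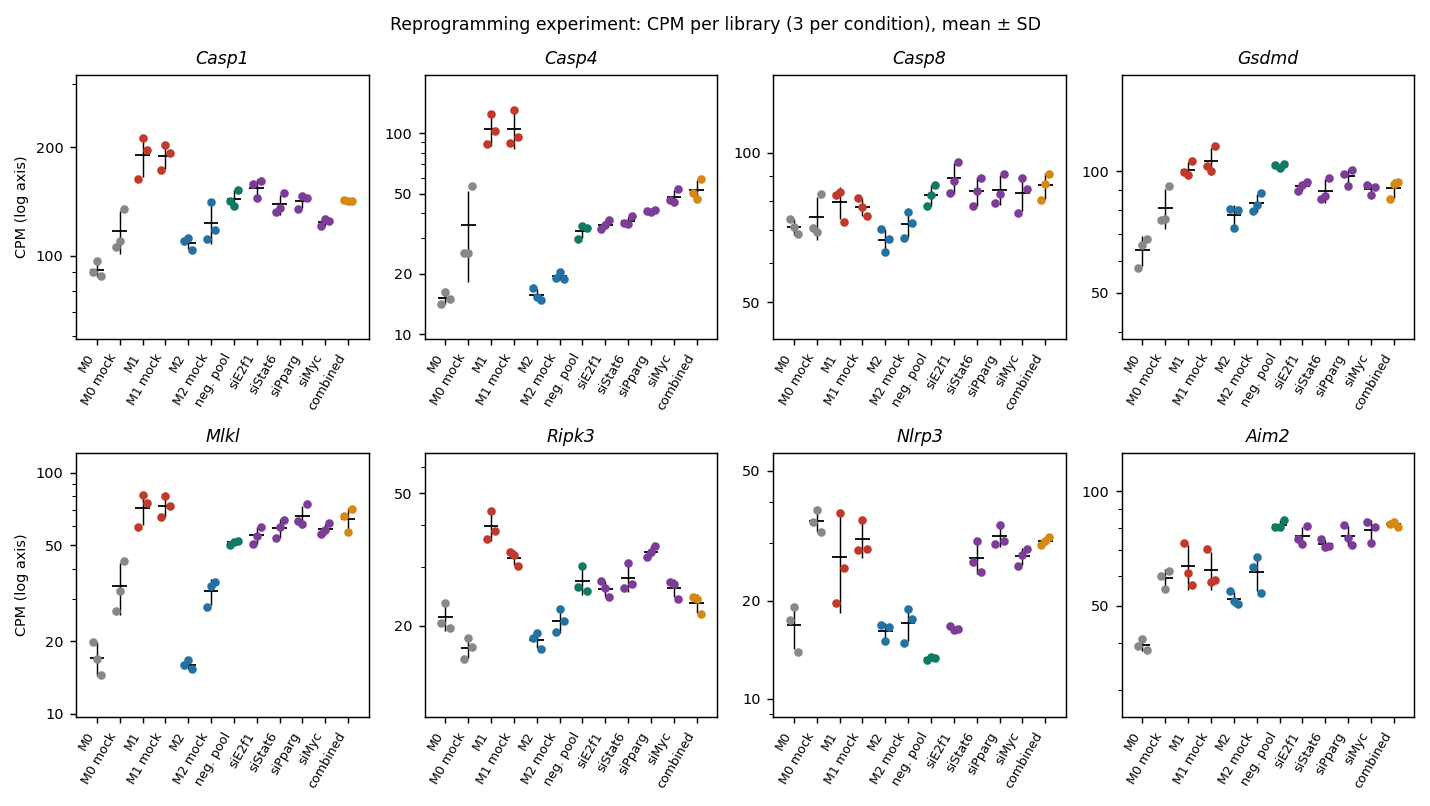
CPM of the 8 members on a log axis in the 12 conditions of the reprogramming experiment, with 1 point per library and the mean ± SD of 3 replicates in black. Mlkl steps up from M2 to M2_mock to the negative pool, while Nlrp3 is lowest with the negative pool and between 16.2 and 16.8 CPM with the pool against E2f1 but between 24.5 and 34.0 CPM with the other pools.

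Knockdown in M2 macrophages was compared with the negative pool, and all 5 knockdowns share these 3 control samples. The methods name Dharmacon as the source of the siRNAs against Myc, and siTools Biotech for those against E2f1, Pparg and Stat6. The source of the negative pool is not given in the sources used here. In contrasts with the pool against Myc, target and supplier therefore cannot be told apart, and the combined pool holds siRNAs of both suppliers. Nlrp3 was the member that responded to most of the pools. It was at 26.3, 30.3 and 24.5 CPM with the pool against Stat6, at 29.8, 34.0 and 30.5 CPM with that against Pparg, and at 25.6, 27.5 and 28.9 CPM with that against Myc. With the combined pool it was at 29.6, 30.5 and 31.4 CPM and with the pool against E2f1 at 16.8, 16.2 and 16.4 CPM. Every knockdown library thus lay above the 3 control libraries, and the E2f1 libraries lay below those of the other pools. The E2f1 libraries lay within the range of the mock M2 libraries, which were at 14.9, 18.9 and 17.6 CPM. The log2 fold change of Nlrp3 was 1.24 ± 0.14 for Pparg (adjusted p = 9.42e-07), 1.19 ± 0.14 for the combined pool (adjusted p = 1.89e-07), 1.03 ± 0.14 for Myc (adjusted p = 1.74e-06) and 1.02 ± 0.14 for Stat6 (adjusted p = 0.000153). For E2f1 it was 0.30 ± 0.15 (adjusted p = 0.462), with a 95% interval from 0.01 to 0.59. The 6 mesothelial and fibroblast markers summed to 130 to 192 CPM with the negative pool, 111 to 169 CPM with the combined pool, 106 to 143 CPM with the pool against Myc and 90.1 to 134 CPM with that against E2f1. They summed to 113 to 208 CPM with the pool against Pparg and 157 to 204 CPM with that against Stat6. Of 5 that were tested, 3 were lower with the pool against Myc, 1 was lower with the combined pool and 0 passed with the pools against E2f1, Pparg or Stat6 (edgeR, adjusted p under 0.05). Their part in the result was not tested.

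The difference between the pools was tested directly in the same model, in contrasts chosen after the values had been seen. Nlrp3 was lower with the pool against E2f1 than with those against Myc (log2 fold change 0.73 ± 0.14 in favor of Myc, adjusted p = 0.000216), Pparg (0.93 ± 0.14, adjusted p = 5.74e-05) and Stat6 (0.72 ± 0.14, adjusted p = 0.00613) and with the combined pool (0.89 ± 0.14, adjusted p = 1.89e-05). In these 4 contrasts 26%, 3.9%, 1.09% and 21.6% of all genes passed. Between the combined pool and these 3 single pools no difference in Nlrp3 passed the test, with 0.16 ± 0.13 from Myc, −0.05 ± 0.13 from Pparg and 0.17 ± 0.14 from Stat6, and the 95% interval of the last reached from −0.09 to 0.44.

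Casp4 rose with the pool against Myc, to 46.6, 45.3 and 52.6 CPM from 29.7, 34.4 and 33.8 CPM (log2 fold change 0.56 ± 0.17, adjusted p = 0.0144), and with the combined pool, to 50.7, 47.2 and 59.2 CPM (0.68 ± 0.17, adjusted p = 0.00377). It was at 41.1, 40.8 and 41.4 CPM with the pool against Pparg, above all control libraries, but did not pass the test in the fit of all groups (0.33 ± 0.18, adjusted p = 0.309). This contrast passed with no filter on low counts (0.34, adjusted p = 0.0355) and with only the compared groups in the fit (0.33, adjusted p = 0.0179). With the combined pool Casp4 and Nlrp3 were the 2 members called, where 26.5% of all genes passed (12.5% higher and 13.9% lower), and with the pool against Myc they were joined by Gsdmd, which was lower (−0.19 ± 0.07, adjusted p = 0.0466), where 29.6% passed (13.9% higher and 15.6% lower). The Myc call of Casp4 was lost without Myc replicate 3 (0.49, adjusted p = 0.0646) or negative pool replicate 1 (0.50, adjusted p = 0.0673). That of Gsdmd was lost without any 1 of the 6 libraries, with adjusted p-values between 0.0624 and 0.151. A call in either direction for 2 or 3 of 8 members is near the shares of 26.5% and 29.6%.

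Ripk3 responded to the pool against Pparg. It was at 32.2, 33.2 and 34.7 CPM there against 26.2, 30.1 and 25.4 CPM with the negative pool (log2 fold change 0.29 ± 0.09, adjusted p = 0.0404), and this call was lost without any of 5 single libraries, with adjusted p-values between 0.0554 and 0.199. Nlrp3 and Ripk3 were the 2 members called with the pool against Pparg, where 5.74% of all genes passed and 2.71% were higher. With the combined pool, which also holds the siRNAs against Pparg, Ripk3 was at 24.3, 24.1 and 21.7 CPM, lower than with the Pparg pool alone (−0.52 ± 0.09, adjusted p = 9.37e-05). It was the only member called between these 2 conditions in the fit of all groups, where 18% of all genes passed. Casp4 was also called there, higher with the combined pool, with no filter on low counts (0.34, adjusted p = 0.0118). With only the compared groups in the fit it was called as well (0.36, adjusted p = 0.0154). With the pool against Stat6, Nlrp3 was the only member called (1.51% of genes passed). None of the 8 was called with the pool against E2f1 by edgeR or DESeq2, and 1 (Gsdmd) had an unadjusted p under 0.05, where 0.91% of all genes passed (0.261% higher and 0.649% lower). Between the combined pool and the pool against Myc both tools also called 0 members, and 1 (Casp1) had an unadjusted p under 0.05. Only 0.0494% of all genes passed in that contrast.

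Casp8, Casp1, Mlkl and Aim2 were not called against the negative pool with any of the 5 pools in the main fit, which held all groups and no replicate block. Mlkl was at 56.8 to 70.8 CPM with the combined pool, above the 50.2 to 52.2 CPM of the negative pool (0.33 ± 0.13, adjusted p = 0.0532), and at 61.2 to 74.1 CPM with the pool against Pparg (0.36 ± 0.13, adjusted p = 0.0875). Mlkl passed in both contrasts with no filter on low counts (adjusted p = 0.00705 and 0.00568) and with only the compared groups in the fit (adjusted p = 0.00583 and 0.0122), and for the combined pool also with at least 10 counts in every sample (adjusted p = 0.045) and without combined replicate 2 (0.41, adjusted p = 0.0307). With only the compared groups Mlkl (0.19, adjusted p = 0.0343) and Casp1 (−0.21, adjusted p = 0.0167) passed for Myc as well. A replicate block added Mlkl for the combined pool (adjusted p = 0.0212) and Pparg (adjusted p = 0.0343), and Casp1 for Myc (adjusted p = 0.0379). Aim2 had a log2 fold change of 0.00 ± 0.08 with the combined pool, with a 95% interval from −0.16 to 0.17. Against mock instead of the negative pool, 5 members were higher with the combined pool: Casp4 (1.43 ± 0.18), Mlkl (0.999 ± 0.13), Nlrp3 (0.84 ± 0.14), Aim2 (0.41 ± 0.08) and Casp8 (0.26 ± 0.08), where 37.1% of all genes passed and 19% were higher. Of these, Casp4, Mlkl and Aim2 had also been called higher with the negative pool against mock. The Casp8 call was lost without combined replicate 3 (0.22, adjusted p = 0.0573) or M2_mock replicate 1 (0.21, adjusted p = 0.0636). Gsdmd and Ripk3, at −0.18 and −0.22 against the negative pool, were at 0.12 and 0.18 against mock and passed in neither contrast in the main fit. With a replicate block, both passed against the negative pool (adjusted p = 0.0166 for Gsdmd and 0.024 for Ripk3). Against the negative pool Gsdmd passed with DESeq2 (−0.19, adjusted p = 0.0483) and with only the compared groups in the fit (−0.18, adjusted p = 0.0369).

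**Figure D4:**
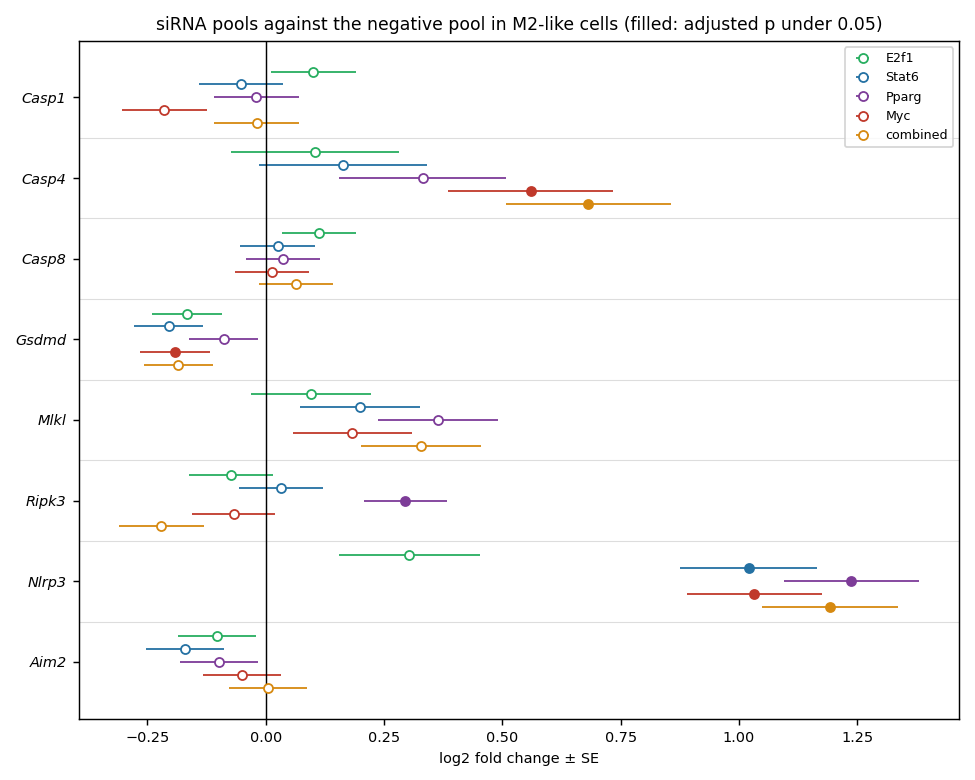
Log2 fold change ± SE of each member between M2 macrophages with a knockdown pool and those with the negative siRNA pool (n = 3 per group, the same 3 controls throughout). Filled points passed an adjusted p of 0.05, and Nlrp3 is filled for Stat6, Pparg, Myc and the combined pool but not for E2f1, where it is at 0.30.

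The study used the combined pool to turn M2 macrophages towards the M1 state, so the combined knockdown was set beside mock M1 macrophages. Nlrp3 was at 29.6, 30.5 and 31.4 CPM against 28.6, 35.3 and 28.7 CPM in M1_mock, and the difference was −0.02 ± 0.13 (adjusted p = 0.922; 95% interval from −0.28 to 0.24). Mlkl was at 65.9, 56.8 and 70.8 CPM against 65.6, 79.9 and 73.1 CPM (−0.18 ± 0.12, adjusted p = 0.237). Both genes overlapped between the groups. Casp4 stayed below the M1 level, at 50.7, 47.2 and 59.2 CPM against 89.6, 131 and 95.4 CPM (−1.01 ± 0.17, adjusted p = 6.85e-06), as did Ripk3 (−0.45 ± 0.09), Casp1 (−0.41 ± 0.09) and Gsdmd (−0.22 ± 0.07). The Gsdmd call was lost without M1_mock replicate 3 (−0.16, adjusted p = 0.0966) or combined replicate 1 (−0.18, adjusted p = 0.0703). Aim2 was above it, at 82.2, 83.2 and 80.8 CPM against 70.4, 57.9 and 58.3 CPM (0.40 ± 0.08, adjusted p = 0.000139). In all, 5 members differed, where 52.9% of all genes passed (27.2% higher and 25.6% lower). The level of Nlrp3 is not particular to M1 or knocked-down cells, since M0_mock held 34.8, 37.8 and 32.5 CPM, the highest of the 12 conditions.

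The order of the 12 conditions differed between members. For Casp4 the M1 pair M1_mock and M1 came first, apart from the combined and Myc pools, which overlapped each other, and M2 and M0 came last and overlapped. For Mlkl a plateau of M1_mock, M1, the 5 knockdown pools and the negative pool, in which neighbors overlapped, was apart from M0_mock and M2_mock, and these were apart from M0 and M2. For Ripk3 untransfected M1 macrophages were apart from all others, and for Casp8 every neighbor overlapped the next, with means between 66.8 and 88.9 CPM. Aim2 was highest with the combined and the negative pool and lowest in M0, which was apart from all others, and then in M2, which overlapped M2_mock. Per kilobase of exon Casp1 was the highest member in all 12 conditions, at 61.2 to 127 CPM per kb, and Nlrp3 was the lowest except in M0, where it was Casp4, and in M0_mock, where it was Ripk3.

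Pearson's r between members over the 12 condition means of log2 CPM, which share libraries and controls, was highest for Casp1 with Gsdmd (0.908) and Casp1 with Casp4 (0.890), and lowest for Nlrp3 with Aim2 (0.232). Nlrp3 had r of at most 0.619 with the other members. Among 10129 genes, the pattern most like that of Mlkl was B2m (r = 0.993) and then Ifi205 (0.990), that of Casp4 was Aoah (0.992) and Nod2 (0.988), and that of Nlrp3 was Ncdn (0.924) and Zfp821 (0.905). For Casp1 these were Riok3 (0.977) and Pkp4 (0.973), for Gsdmd Slc29a3 (0.968) and Tmem178 (0.960), and for Aim2 Rhou (0.973) and Nt5c3 (0.970). Casp8 was closest to Morc3 (0.966), and Ripk3 to Plbd1 (0.938) and Tnfrsf23 (0.929).

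Partners and cargo of the members did not all move with them. Il1b, the IL-1β precursor that caspase-1 cleaves, was at 135 ± 24 CPM (SD, n = 3) in M1 and 0.239 ± 0.139 CPM in M2 macrophages of the polarization experiment (log2 fold change 9.20 ± 0.26, adjusted p = 1.92e-11), but its means stayed between 0.0453 and 1.99 CPM in all 12 conditions of the reprogramming experiment, in which Nlrp3 reached 37.8 CPM. Il18, the other cytokine precursor, rose from 2.49 to 10.1 CPM between M2 and M1 macrophages (2.02 ± 0.14). Pycard, the ASC adaptor that joins sensors to caspase-1, was slightly lower in M1 than in M2 macrophages of the polarization experiment (−0.33 ± 0.07, adjusted p = 0.00117) and higher in those of the reprogramming experiment without transfection (0.64 ± 0.09, adjusted p = 5.44e-07) and with the combined pool against the negative pool (0.29 ± 0.09, adjusted p = 0.0210).

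Zbp1, a nucleic acid sensor that engages RIPK3, was at 584 ± 30 CPM in M1 and 8.38 ± 0.24 CPM in M2 macrophages (6.12 ± 0.09, adjusted p = 2.07e-13). In M2 cells of the reprogramming experiment its mean went from 3.89 CPM untransfected to 31.4 CPM with mock and 113 CPM with the negative pool, the steps in which Mlkl also moved. Ripk1, the kinase upstream of RIPK3, rose by 0.90 ± 0.05 in M1 against M2 macrophages (adjusted p = 7.75e-09) and was at 0.01 ± 0.08 in the untransfected cells. Fadd, the adaptor of caspase-8, passed in neither (−0.06 ± 0.07 and 0.19 ± 0.12). Cflar, which codes for cFLIP, a partner that restrains caspase-8, was at 930 ± 5.8 CPM in M1 and 94.5 ± 9.2 CPM in M2 macrophages (3.30 ± 0.08) and rose by 0.55 ± 0.09 with the combined pool (adjusted p = 3.04e-05).

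Wider lists of the same pathways were counted in the contrast of M1 with M2 macrophages of the polarization experiment, where 34.6% of all genes were higher and 38.1% lower. Of 17 inflammasome sensors and regulators tested, 7 were higher and 8 lower, with a median log2 fold change of −0.06, the same as that of all genes to 2 decimals. Mefv, which codes for pyrin (4.02 ± 0.10), and Ifi204 (3.28 ± 0.10) rose most, and Nlrp1b (−3.61 ± 0.17) and Nlrp10 (−3.35 ± 0.23) fell most. Nlrp1b has close paralogs among which reads may be split, so its value is uncertain. Of 24 genes of necroptosis and the TNF receptor complex, 20 were higher and 1 was lower (median 0.99), with Zbp1 and the death receptor gene Fas (4.19 ± 0.11) in front and the deubiquitinase gene Otulin lower (−1.04 ± 0.06). Of 20 genes of mitochondrial apoptosis, 15 were higher and 4 lower (median 0.80): the survival gene Mcl1 (1.64 ± 0.08) was among those that rose, and the killer gene Bcl2l11 (−2.01 ± 0.10) and the survival gene Bcl2 (−1.31 ± 0.08) fell most.

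Of 5 other pyroptosis genes tested, 4 were higher, led by Il1b and Il1a (4.43 ± 0.11), and Gsdme, another gasdermin, was lower (−2.62 ± 0.15). Of 11 genes of ESCRT-III, which repairs membranes after gasdermin or MLKL damage, 6 were higher and none was lower (median 0.13), led by Chmp4b (1.02 ± 0.06) and Chmp1a (0.58 ± 0.07). With the combined pool against the negative pool, where 12.5% of all genes were higher and 13.9% lower, 11 of the 24 necroptosis genes were higher and 3 lower (median 0.19, against 0.01 for all genes), led by Fas (0.90 ± 0.20) and Birc3 (0.69 ± 0.10), with Xiap (−0.28 ± 0.07) and Otulin (−0.24 ± 0.08) lower. Of the 17 inflammasome genes 4 were higher, with Mefv (1.09 ± 0.29) and the channel gene Panx1 (0.50 ± 0.15) in front, and 3 were lower, with Nlrp10 (−0.95 ± 0.30) and Nek7 (−0.41 ± 0.07), whose product binds NLRP3, in front. Of the 20 apoptosis genes 4 were higher, led by Bcl2 (0.67 ± 0.19) and Bax (0.38 ± 0.11), and 3 lower, led by Bcl2l11 (−0.74 ± 0.08) and Casp2 (−0.43 ± 0.10). Of the 5 pyroptosis genes Il1a (0.53 ± 0.17) was higher, and of the 11 ESCRT-III genes Chmp6 (0.25 ± 0.09).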

How the data were processed

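RNA of 54 libraries had been sequenced, 18 in the polarization experiment with single-end reads of 50 nt and 36 in the reprogramming experiment with paired-end reads of 150 nt. The authors trimmed reads with Trimmomatic, aligned them with TopHat to the mouse genome (GRCm38) and counted them per gene with featureCounts, and the deposited values are raw counts. Strand and multi-mapping settings are not given in the sources used here, so reads of close paralogs may be split or lost. From these counts, the 2 technical replicates of each polarization sample were summed (they differed by little more than counting noise, chi-square per gene 1.07 to 1.1), giving 9 samples of 3 mice. Each experiment was fitted alone with edgeR 4.0.16 in R 4.3.3 (TMM, filterByExpr with a minimum count of 10 and a minimum total of 15, quasi-likelihood test, 1 mean per group, all groups in the fit), and p-values were adjusted by Benjamini-Hochberg over 16110 and 14172 genes. Intervals at 95% are normal approximations from the SE. Counting error covers only part of the spread between samples.

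The members and gene lists were chosen with earlier results of these data known. Of the wider lists, the text names for each comparison the leading called genes in each direction, and the partners of the members. In the polarization experiment replicate numbers mark the same mouse per the labels, and deviations from the group means correlated with a median r of 0.25 within a mouse and −0.14 between mice. DESeq2 1.42.0, RLE size factors, other count filters, a replicate block, fits of only the compared groups, technical replicates kept apart and leaving out each replicate were tried as alternatives. The fitting code was tested on simulated data. Promoter sequences came from RefSeq (GRCm38.p6). A few genes and motifs that the rules would name are not reported here.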

Additional observations from a re-analysis of the deposited data

Results flagged for a closer look

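The contrast of M1-like with M2-like macrophages differed between mock-transfected and untransfected cells for Mlkl, whose log2 fold change was smaller in mock cells by −0.99 (edgeR interaction term, adjusted p = 0.0019), and for Ripk3, by −0.50 (adjusted p = 0.0399). Aim2 had opposite directions in the 2 experiments, with a log2 fold change of −0.42 between M1-like and M2-like macrophages of the polarization experiment and 0.29 between the untransfected cells of the reprogramming experiment. Against M0 macrophages, Aim2 was at −0.42 and 0.69 in M1-like cells. Ripk3 was at 0.88 in M2-like against M0 macrophages of the polarization experiment and at −0.23 in the reprogramming experiment, where it did not pass the test. These differences between experiments were not tested, and experiment, read type and time of harvest cannot be told apart.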

How the results depend on the processing

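Of 2280 fold changes of the members under alternative settings, 2202 kept their side of the threshold, 41 lost a call, 37 gained one and no called value changed direction. Among the 2202, 79 values that passed in neither fit changed sign, with sizes up to 0.18 on the log2 scale. The rises of Nlrp3 over the negative pool passed under every alternative run, from 0.99 to 1.08 for Myc, 1.17 to 1.27 for Pparg, 0.93 to 1.09 for Stat6 and 1.17 to 1.21 for the combined pool. Of the counts of members called, 260 stayed within 1.5 times and 28 moved. For the fits named below, the share of all genes passing was not counted, so these counts have no background beside them. With no filter, 2 members were called between the combined and the Pparg pool and 1 in the interaction. With only the compared groups in the fit, 1 was called between mock M2-like and mock M0 cells, 4 for the combined pool, 5 for Myc and 4 for Pparg against the negative pool, 2 between the combined and the Pparg pool and 1 in the interaction. In the reprogramming experiment replicate numbers are shared without a stated pairing. Over 198 pairs of same-numbered samples the median correlation of deviations was 0.18, 66% of pairs were over 0.1 and 34 of 36 samples correlated best with their own number. With the replicate number as a block, 4 members were called between M2 and M0 and 5 for the combined pool against the negative pool, where Mlkl (0.33, adjusted p = 0.0212), Gsdmd (−0.18, adjusted p = 0.0166) and Ripk3 (−0.22, adjusted p = 0.024) were added. The block also added Mlkl for Pparg (0.36, adjusted p = 0.0343) and Casp1 for Myc (−0.21, adjusted p = 0.0379). In the polarization experiment the block by mouse changed the call of Ripk3 between M1-like and M2-like cells (0.25) and of no other member.

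Leaving out 1 replicate gave 6 to 7 members called for M0_mock against M0, 7 to 8 for M1 against M0 and against M2, 1 to 2 for M2 against M0 and for M2_mock against M0_mock, 5 to 6 for the negative pool against mock, 1 to 2 for Myc and for Pparg and 2 to 3 for the combined pool against the negative pool, 4 to 5 for the combined pool against M1_mock and 4 to 6 against M2_mock, 1 to 2 in the interaction and 7 to 8 between M1-like and M2-like cells of the polarization experiment. At 3 samples a group, small differences such as those of Casp8 and Gsdmd lie near what the spread allows.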
